A study of Homo sapiens with 6 samples.

Results

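The cytosolic ribosomal protein genes were taken as the entries of the count table named RPL or RPS and a number, with or without a final A, L or X, plus RPLP0, RPLP1, RPLP2 and RPSA. Pseudogenes are thereby left out. The rule found 81 of 52088 entries, 49 for the large and 32 for the small ribosomal subunit, and 79 of the 81 had enough counts to be tested among 20746 tested genes. The study deleted ultra-conserved elements (UCEs), non-coding segments of the genome, in K562, an established human erythroleukaemia line, and measured gene expression by total RNA-seq. PAX6_Ta KO cells (PAX6_Tarzan Knockout in the labels) and PBX3_Cl KO cells (PBX3_Claudia Knockout) were set against Control K562 cells with the genotype WT, with 2 libraries in each group. The deletions were made with a plasmid carrying Cas9 and a pair of guide RNAs, puromycin selection and the picking of single clones. Control cells are wild-type K562 by label, and the number of clones behind the replicates is not stated. The deletion, the clone and the editing procedure cannot be told apart. Nothing states that the replicates were separate cultures, and the p-values cover the variation among these 6 libraries alone, which can be technical.

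The libraries held 45912044 to 60908470 counts. All 15 erythroid markers were detected, with a summed level of 10419 to 12119 CPM (counts scaled to library size with edgeR's TMM factors) in PAX6_Ta KO, 9777 to 10521 in PBX3_Cl KO and 6739 to 7930 in Control. The 7 megakaryocyte markers, none of them at 0 in every library, summed to 8.72 to 12.4 CPM in PAX6_Ta KO, 11.6 to 13.9 in PBX3_Cl KO and 23.3 to 88 in Control. The 6 fibroblast markers (LUM at 0 throughout) summed to 23 to 23.1 CPM in PAX6_Ta KO, 3.22 to 3.23 in PBX3_Cl KO and 49 to 133 in Control, and the 5 epithelial markers (KRT5 and KRT14 at 0) to 222 to 309, 268 to 363 and 123 to 207 CPM. Members of both lists went in opposite directions. KRT19 made up most of the epithelial sum, while EPCAM stood at 3.66 and 2.13 CPM in PAX6_Ta KO against 42.3 and 45.5 in Control. COL1A2 made up the fibroblast sum in Control, while COL1A1 was called higher in PAX6_Ta KO and COL3A1 in PBX3_Cl KO. Genes of the mitochondrial genome took 1.56% to 1.92% of counts in PAX6_Ta KO, 2.37% to 2.42% in PBX3_Cl KO and 1.52% to 1.57% in Control. The part of these differences in the results below was not tested. Counts per gene do not check the loss of a non-coding element. Fewer cells of a type and less RNA per cell cannot be told apart in these bulk samples.

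The cytosolic ribosome is built from ribosomal RNA and a set of small basic proteins, nearly all present in a single copy per subunit, so that cells make them in matched amounts. Most of their mRNAs start with a cytosine followed by a run of pyrimidines, the 5′ terminal oligopyrimidine (TOP) motif, through which mTOR and LARP1 control their translation. Red cell precursors are sensitive to their dosage, and loss of a single copy of RPS19 or several other members causes Diamond-Blackfan anaemia.

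The start of transcription was compared first, because the TOP motif is the sequence these genes share. RefSeq promoter windows of GRCh38.p14 were matched by symbol for 64 members. A cytosine at the annotated start followed by 4 or more pyrimidines was found in 46 of them (71.9%), against 1404 of 27305 genes (5.14%). The ETS-type motif CCGGAAG, searched on both strands from 250 bases before to 50 after the start, was found in 23 members (35.9%) against 12.2% of all genes. The windows below are shown because these members lie on the chromosome arms described later, or are paralogues at the low end of the level. Each has 25 bases before and 15 from the start on, read 5′ to 3′ along the gene, and capitals mark the pyrimidine run at the start.
RPLP2: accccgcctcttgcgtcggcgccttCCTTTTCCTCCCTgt
RPL27A: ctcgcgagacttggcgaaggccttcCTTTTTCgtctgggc
RPS13: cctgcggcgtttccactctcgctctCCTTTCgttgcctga
RPL34: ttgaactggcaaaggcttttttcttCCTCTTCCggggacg
RPS27A: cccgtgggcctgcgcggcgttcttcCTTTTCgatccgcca
RPS7: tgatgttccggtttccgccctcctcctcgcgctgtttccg
RPS27L: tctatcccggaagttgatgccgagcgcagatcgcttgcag
RPL10L: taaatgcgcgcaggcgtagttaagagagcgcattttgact
Each matched GRCh37 at a single place: RPLP2 at chr11:809942-809981 on the plus strand, RPL27A at chr11:8704314-8704353 (plus) and RPS13 at chr11:17099200-17099239 (minus). RPL34 lay at chr4:109541707-109541746, RPS27A at chr2:55459799-55459838 and RPS7 at chr2:3622825-3622864, all on the plus strand. RPS27L at chr15:63449662-63449701 and RPL10L at chr14:47120970-47121009 were on the minus strand. The run was 13 bases long in RPLP2, 8 in RPL34, 7 in RPL27A and 6 in RPS13 and RPS27A, and RPS7, RPS27L and RPL10L had none at the annotated start.

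The first question was whether either deletion changed the total level of these mRNAs. The 81 genes took 5.36% and 4.55% of counts in PAX6_Ta KO, 5.01% and 3.93% in PBX3_Cl KO, and 4.69% and 4.50% in Control. By this share PAX6_Ta KO was above Control in both same-numbered pairs and PBX3_Cl KO in 1 of 2 (exact two-sided permutation test without the pairing, p = 0.667 and p = 1). Scaled by TMM, their sum was 55624 and 41782 CPM in PAX6_Ta KO, 54703 and 39419 in PBX3_Cl KO and 47592 and 42725 in Control. In each group replicate 1 was the higher library, and the range of each knockout's TMM-scaled sum held both Control values. The mean sum was 48703 ± 9788 CPM in PAX6_Ta KO, 47061 ± 10807 in PBX3_Cl KO and 45158 ± 3441 in Control (SD, n = 2). The difference of these sums from Control was within the spread between replicates for both knockouts (exact two-sided permutation test, p = 1 for each, the smallest possible with 2 against 2 being 0.333). The ratio of large- to small-subunit sums was 1.97 and 1.93 in PAX6_Ta KO, 1.66 and 1.61 in PBX3_Cl KO, and 1.75 and 1.74 in Control. Here the groups did not overlap, with PAX6_Ta KO above and PBX3_Cl KO below Control, a ratio computed after the libraries had been seen and given without a test.

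**Figure D1:**
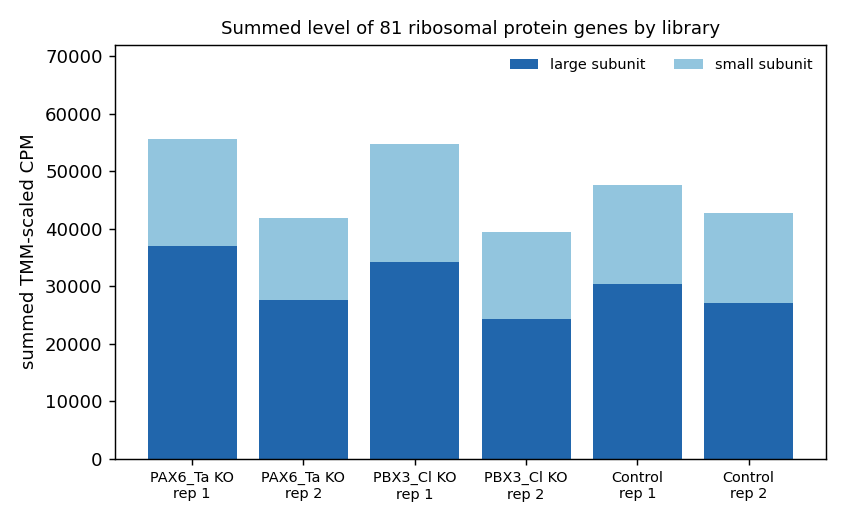
Summed TMM-scaled CPM of the 81 ribosomal protein genes in each library, with the large-subunit part below and the small-subunit part above it. Replicate 1 exceeds replicate 2 in every group, and the sums run from 39419 CPM (PBX3_Cl KO replicate 2) to 55624 CPM (PAX6_Ta KO replicate 1).

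In PAX6_Ta KO, 1 of the 79 tested members was higher than in Control and 0 were lower (edgeR's quasi-likelihood test, Benjamini-Hochberg adjusted p below 0.05 over all tested genes). Among all tested genes 7.21% were called higher and 4.21% lower. At an unadjusted p under 0.05 there were 3 members higher and 1 lower, beside 12.6% and 10.1% of all tested genes. DESeq2 also called 1 member higher and 0 lower, beside 4.3% and 2.43% of the 34890 genes it was run on. The median log2 fold change of the members was 0.10, with the middle of the distribution between -0.20 and 0.21, and 48 of 79 were above 0, beside a median of -0.02 over all tested genes. Without PAX6_Ta KO replicate 1 the members' median was -0.02, and without PAX6_Ta KO replicate 2 it was 0.20. The change was below 0.5 in size on the log2 scale for 73 members (92.4%) and for 63.4% of all tested genes, many of which have lower counts. The PAX6_Ta KO libraries lay wholly above Control for 17 members (21.5%) and wholly below for 10 (12.7%), against 27% and 28% of all tested genes.

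The member that was called was RPLP2 (ENSG00000177600, chr11:809965-812880, 11p), which forms the lateral stalk of the large subunit with RPLP0 and RPLP1 and recruits translation factors. RPLP2 stood at 177 and 173 CPM in PAX6_Ta KO, 188 and 143 in PBX3_Cl KO, and 82.3 and 122 in Control. Both knockouts lay above both Control libraries. The log2 fold change was 0.78 in PAX6_Ta KO (SE 0.23, edgeR adjusted p = 0.0483) and 0.70 in PBX3_Cl KO (SE 0.23, adjusted p = 0.0903). The call in PAX6_Ta KO was lost without Control replicate 1 (0.52, adjusted p = 0.427), without PAX6_Ta KO replicate 1 (0.76, adjusted p = 0.184) and without PAX6_Ta KO replicate 2 (0.80, adjusted p = 0.119). Its stalk partners differed less. RPLP0, the base of the stalk, had log2 fold changes of 0.12 and 0.16 in PAX6_Ta KO and PBX3_Cl KO, and RPLP1 had 0.21 and 0.05 (edgeR adjusted p 0.717 to 0.959).

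RPLP2 shares its chromosome arm with a further pair of members, and these had the same direction. RPL27A, of the large subunit, stood at 521 and 454 CPM in PAX6_Ta KO, 512 and 314 in PBX3_Cl KO, and 270 and 310 in Control, with log2 fold changes of 0.75 (SE 0.25, edgeR adjusted p = 0.0793) and 0.51 (adjusted p = 0.291). RPS13, of the small subunit, stood at 301 and 219 CPM in PAX6_Ta KO, 249 and 125 in PBX3_Cl KO, and 145 and 143 in Control. Its log2 fold change was 0.85 in PAX6_Ta KO (SE 0.29, edgeR adjusted p = 0.0855) and 0.38 in PBX3_Cl KO (adjusted p = 0.566). For all 3 genes the PAX6_Ta KO libraries lay above Control, whereas for RPS13 the PBX3_Cl KO libraries lay on either side of it. With the replicate number as a block, all 3 were called in PAX6_Ta KO, RPS13 at 0.82 (edgeR adjusted p = 0.0306), RPLP2 at 0.78 (0.0362) and RPL27A at 0.73 (0.0387). That fit called 9.78% of all tested genes higher and 7.33% lower.

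The other genes of 11p moved by a similar amount. Over 264 tested protein-coding genes of 11p that are not members, the median log2 fold change came to 0.62 for PAX6_Ta KO and 0.64 for PBX3_Cl KO. With the median of each arm taken out, the log2 fold change of RPLP2 in PAX6_Ta KO was 0.16 (edgeR adjusted p = 0.824) and 0 members were called in any comparison. The members of 2p and 4q, whose medians were the lowest among arms that hold members, were all below 0. On arms with smaller shifts the members went either way, as RPL5 on 1p (0.19, arm median -0.31) and RPL39 on Xq (0.49, arm median -0.19). On 2p (arm median -0.50 in PAX6_Ta KO), RPS27A, which encodes a ubiquitin fused to a small-subunit protein, stood at 154 and 165 CPM in PAX6_Ta KO against 181 and 247 in Control (-0.43, edgeR adjusted p = 0.309). RPS7, also on 2p, stood at 698 and 488 CPM in PAX6_Ta KO against 870 and 740 in Control (-0.44, edgeR adjusted p = 0.393). Neither overlapped Control, and neither passed the test.

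On 4q (arm median -0.49 in PAX6_Ta KO), RPL34 stood at 128 and 116 CPM in PAX6_Ta KO, 185 and 90.7 in PBX3_Cl KO, and 182 and 193 in Control. Its log2 fold change of -0.62 in PAX6_Ta KO (SE 0.28, edgeR adjusted p = 0.210) was the lowest among the members. RPS3A on the same arm had -0.41 (edgeR adjusted p = 0.567). In PBX3_Cl KO, where the arm medians of 2p and 4q were -0.02 and -0.10, these 4 genes had log2 fold changes of -0.44 to -0.20, none of them called. Across the 79 members the log2 fold change and the median of its arm correlated at Pearson's r of 0.658 (Spearman's rho 0.496) in PAX6_Ta KO and 0.557 (0.462) in PBX3_Cl KO. Without 11p, 2p and 4q, 72 members remained and r was 0.357 and 0.392. These correlations are across genes, which share the libraries and, on an arm, the arm median, and are given as a description.

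**Figure D2:**
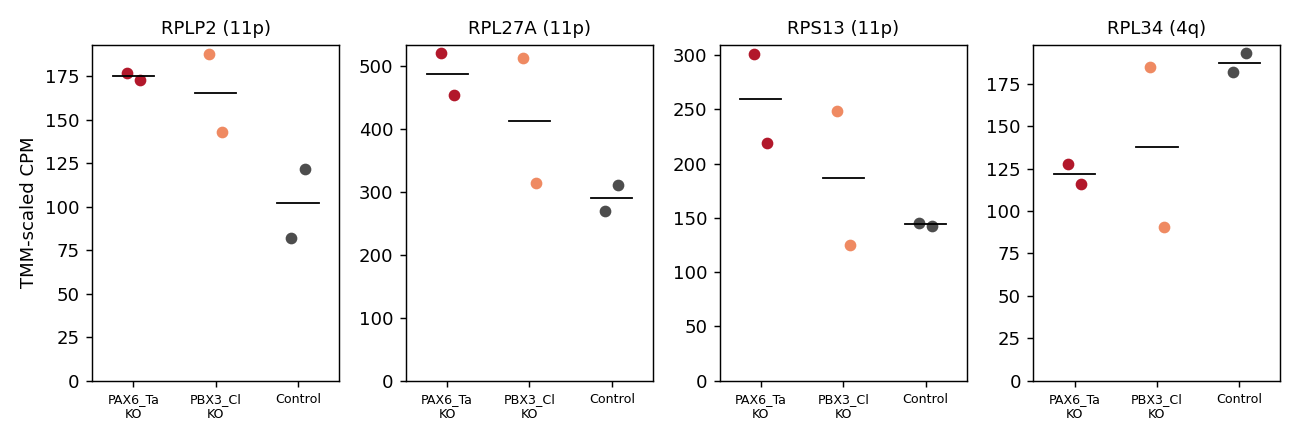
TMM-scaled CPM of RPLP2, RPL27A, RPS13 and RPL34 in each library (points) with the group mean (line), on axes that start at 0. PAX6_Ta KO lies above Control for the 11p genes and below it for RPL34, and the PBX3_Cl KO replicates lie far apart for RPL27A, RPS13 and RPL34.

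Against Control, 0 of 79 members were called higher in PBX3_Cl KO and 0 lower (edgeR, and 0 and 0 by DESeq2). Of all tested genes, edgeR called 6.28% and 2.69%. DESeq2 called 3.8% and 1.64% of the 34890 genes it was run on. At an unadjusted p under 0.05, 4 members were higher and 2 lower, beside 12.6% and 7.07% of all tested genes. The median was -0.04 with 37 of 79 above 0, beside -0.01 over all tested genes. The largest downward values were those of RPS15A (-0.59, edgeR adjusted p = 0.175), RPS10 (-0.58, 0.237) and RPL26 (-0.58, 0.347), the last 2 with shared exons as described below. Outside 11p, the members with the largest upward values were RPS2, RPS27 and RPS19. RPS2, which lies at the mRNA entry side of the small subunit, stood at 3862 and 2929 CPM in PBX3_Cl KO against 2208 and 2066 in Control (log2 fold change 0.67, SE 0.27, edgeR adjusted p = 0.188). RPS19, the gene most often mutated in Diamond-Blackfan anaemia, stood at 823 and 789 CPM in PBX3_Cl KO against 580 and 549 in Control (0.51, edgeR adjusted p = 0.183). Both were called with the replicate number as a block, RPS2 at 0.65 (edgeR adjusted p = 0.0256) and RPS19 at 0.51 (0.0336), so that the count was 2 and 0 in that fit, where 9.26% and 4.22% of all tested genes were called.

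The PBX3_Cl KO libraries differed from each other more than those of the other groups, and the members' median depended on them. Without PBX3_Cl KO replicate 1 the members' median against Control was -0.30, beside -0.03 over all tested genes. Without PBX3_Cl KO replicate 2 the members' median was 0.20, beside -0.03 over all tested genes. The direction of the median thus followed the library that was kept. Leaving out either PBX3_Cl KO library also changed which members were called in PAX6_Ta KO against Control, while the members' median there stayed at 0.10. All libraries share the filter, the scaling and an estimate of the spread.

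Between the knockouts, 0 of 79 members were called higher and 0 lower in PAX6_Ta KO than in PBX3_Cl KO (edgeR, and 0 and 0 by DESeq2). Of all tested genes, edgeR called 5.26% and 6.71%. DESeq2 called 3.17% and 3.93% of the 34890 genes it was run on. At an unadjusted p under 0.05, 2 members were higher and 1 lower, beside 10.9% and 13.4% of all tested genes. The median was 0.08, beside -0.01 over all tested genes. RPS27, a zinc-finger protein of the small subunit, came nearest to the threshold, at 123 and 124 CPM in PAX6_Ta KO against 232 and 165 in PBX3_Cl KO (log2 fold change -0.69, SE 0.21, edgeR adjusted p = 0.0535). RPL9 of the large subunit had the largest log2 fold change, at 2219 and 1428 CPM in PAX6_Ta KO against 1487 and 522 in PBX3_Cl KO (0.86, SE 0.40, edgeR adjusted p = 0.207). With the replicate number as a block, RPL13 was called higher (0.70, edgeR adjusted p = 0.0231), and RPS27 (-0.67, 0.0253), RPSA (-0.53, 0.0343) and RPS2 (-0.52, 0.0493) lower, beside 8.06% and 10.6% of all tested genes. The median was -0.04 without PAX6_Ta KO replicate 1. Without PBX3_Cl KO replicate 1 the members' median was 0.34, beside 0.02 over all tested genes. Without PBX3_Cl KO replicate 2, RPS27 stood at -0.92 and the members' median was -0.095, beside 0.05 over all tested genes.

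The replicate pairs themselves were compared next. The log2 difference of replicate 2 from replicate 1 had a median over the members of -0.24 in PAX6_Ta KO, -0.49 in PBX3_Cl KO and 0.00 in Control, beside -0.01, 0.01 and 0.01 over all tested genes. In PAX6_Ta KO 60 of 79 members were lower in replicate 2 (75.9%, against 51.3% of all tested genes), in PBX3_Cl KO 72 (91.1%, against 49.3%), and in Control 39 (49.4%, against 48.9%). Both subunits took part in PBX3_Cl KO, with medians of -0.48 for the large and -0.49 for the small. The extremes were RPL31 in PAX6_Ta KO (-1.03) and RPL39 in PBX3_Cl KO (-1.63). RPL39 stood at 94.5 and 57.4 CPM in PAX6_Ta KO, 71 and 22.9 in PBX3_Cl KO, and 51.2 and 57.1 in Control. Over the members these differences correlated at Pearson's r of 0.781 between PAX6_Ta KO and Control, 0.461 between the knockouts and 0.263 between PBX3_Cl KO and Control, a description across genes that share libraries. With library totals in place of TMM factors, the members' medians were -0.065 in PAX6_Ta KO, -0.37 in PBX3_Cl KO and 0.10 in Control. Over all tested genes they were 0.16, 0.13 and 0.10. By library totals 48, 68 and 28 members were lower in replicate 2, against 32%, 41.3% and 38.8% of all tested genes. With TMM factors, 37 of the 79 were lower in replicate 2 in every group (46.8%, against 24% of all tested genes).

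**Figure D3:**
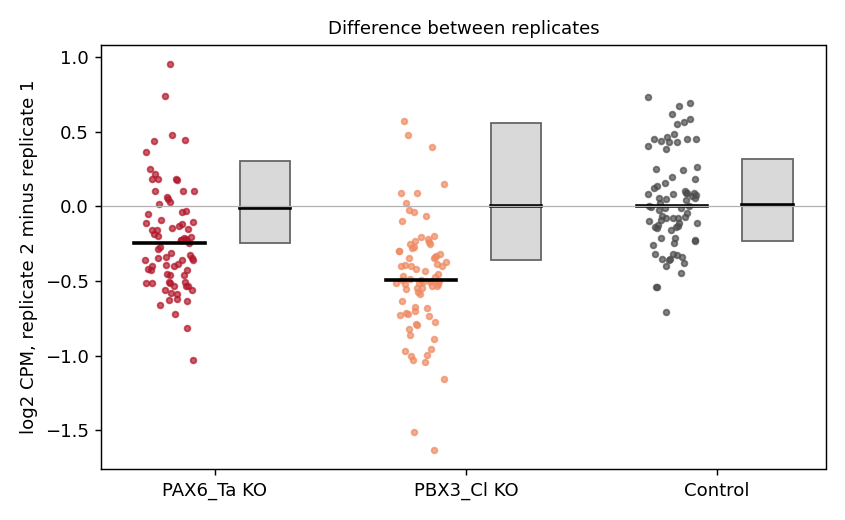
Log2 CPM of replicate 2 minus replicate 1 in each group, with a point per tested member, a bar at the members' median and, to the right of the points, a grey box from the lower to the upper quartile of all 20746 tested genes with its median. The members' medians lie at -0.24 (PAX6_Ta KO), -0.49 (PBX3_Cl KO) and 0.00 (Control).

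Levels were then compared between members per kilobase of a representative transcript, as mean TMM-scaled CPM per kb over the 6 libraries. The median member stood at 449 CPM per kb. RPS2 was highest at 2794, with 2992 and 2063 in PAX6_Ta KO, 4086 and 3100 in PBX3_Cl KO, and 2337 and 2186 in Control. RPLP0 followed at 2530, RPL41, the shortest protein of the ribosome, at 2104, RPL7A at 1918 and RPL9 at 1903. These neighbours overlapped from library to library, and RPS2 was no longer the highest when all annotated exons or the coding length were used. The order among the highest members therefore depends on the length that is used.

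The low end held paralogues with restricted expression, genes whose exons are annotated in part to another gene, and others such as RPS23 (9.35 CPM per kb), which shares no exon base. The representative transcript of RPS23 has 3252 bases, of which 429 are coding. By this length RPS23 lay below RPS10 and RPL36A, and above both when all annotated exons or the coding length were used. The order of the low members thus depends on the length as well. RPL10L, a testis paralogue of RPL10, was left untested, with 2 and 0 counts in PAX6_Ta KO, 0 and 0 in PBX3_Cl KO and 0 and 1 in Control. RPL3L, the striated-muscle paralogue of RPL3, stood at 0.362 CPM per kb, and RPS27L, a p53-inducible paralogue of RPS27, at 1.73. RPL39L, a paralogue of RPL39 known from testis, stood higher at 30.9, over a transcript of 729 bases against 6110 for RPS27L. In CPM, RPL39L stood at 31.4 and 25.1 in PAX6_Ta KO, 24.7 and 12.7 in PBX3_Cl KO, and 21 and 20 in Control. RPS27L stood at 12.3 and 14 CPM in PAX6_Ta KO, 12.6 and 6.92 in PBX3_Cl KO, and 8.08 and 9.58 in Control, with log2 fold changes of 0.58 (edgeR adjusted p = 0.270) and 0.14 (0.876). RPL39L had 0.46 (edgeR adjusted p = 0.380) and -0.13 (0.885), and RPL3L -0.14 and -0.09, so none of these paralogues passed the test.

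Some low members have exons that are annotated on the same strand to another gene as well. RPL17 (76.3% shared, 4.73 CPM per kb), RPS10 (58.7%, 9.53), RPL26 (44.4%, 10.8) and RPL36A (43.8%, 11.8) stood near the bottom, whereas 72 members shared no exon base. No source used here states how reads in shared exons were counted, and the part of the overlap in these levels was not tested. The levels of these genes are uncertain for that reason. A further 1273 entries were named as pseudogenes of members. Their counts came to 2.02% and 2.35% of the members' counts in PAX6_Ta KO, 2.06% and 2.00% in PBX3_Cl KO, and 2.01% and 2.37% in Control. They reached 20% or more of the member's own counts for 10 tested members, with RPL26 at 71.2%, RPL17 at 48.9% and RPL23A at 35.9% on average. Adding them to each member, an alternative chosen after seeing the data, again called RPLP2 alone in PAX6_Ta KO against Control.

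**Figure D4:**
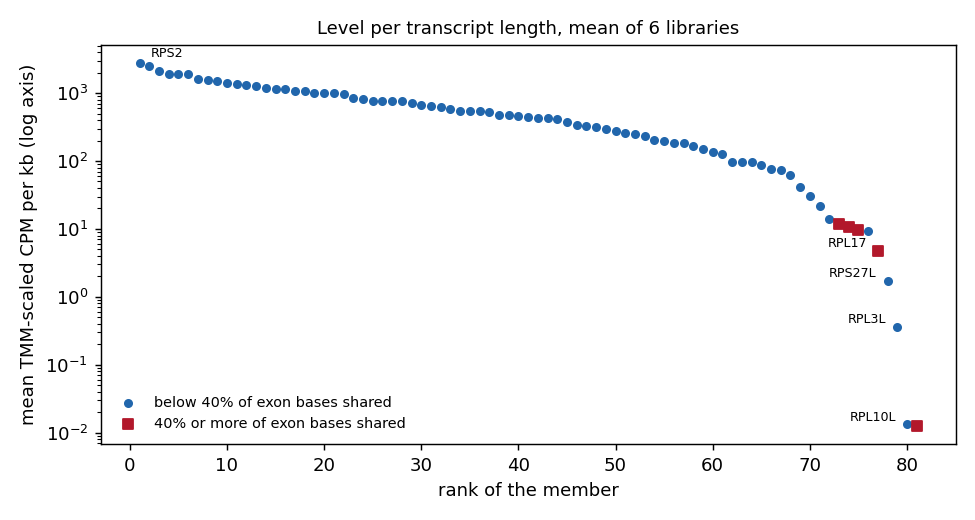
Mean TMM-scaled CPM per kb of the 81 members in order of level, on a log axis, with red squares for members that share 40% or more of their exon bases with another gene on the same strand. The squares lie among the lowest members, while RPS2 leads at 2794.

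RPL5 and RPL11, which with 5S rRNA bind MDM2 and so link ribosome assembly to p53, showed no called change. RPL5 stood at 1414 and 1060 CPM in PAX6_Ta KO, 1250 and 751 in PBX3_Cl KO, and 1144 and 1027 in Control. RPL11 stood at 719 and 504 CPM in PAX6_Ta KO, 824 and 501 in PBX3_Cl KO, and 825 and 626 in Control. The replicates of each group overlapped those of the others for both genes. Of 19 Diamond-Blackfan anaemia genes, 18 were tested and 0 were called in any comparison (edgeR). Of all tested genes, 7.21% were called higher and 4.21% lower in PAX6_Ta KO, and 6.28% and 2.69% in PBX3_Cl KO. Between the knockouts 5.26% and 6.71% were called. The medians of the anaemia genes were -0.14 in PAX6_Ta KO and -0.15 in PBX3_Cl KO. With the replicate number as a block, RPS19 was called in PBX3_Cl KO and RPS27 between the knockouts, as given above. At an unadjusted p under 0.05 there were 0 of these genes in PAX6_Ta KO, beside 12.6% of all tested genes higher and 10.1% lower. In PBX3_Cl KO 2 were higher and 2 lower, beside 12.6% and 7.07%. Members with the pyrimidine start (46) and without it (17 tested) had medians of 0.11 and 0.11 in PAX6_Ta KO, and -0.05 and -0.03 in PBX3_Cl KO.

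Other genes of the translation machinery were read beside the members, against the shares of all tested genes given above (7.21% called higher and 4.21% lower in PAX6_Ta KO, 6.28% and 2.69% in PBX3_Cl KO). At an unadjusted p under 0.05, 12.6% of all tested genes were higher and 10.1% lower in PAX6_Ta KO, where 51.8% were below 0. In PBX3_Cl KO these shares were 12.6%, 7.07% and 51%. FAU, which encodes a ribosomal protein fused to a ubiquitin-like protein, had log2 fold changes of 0.07 in PAX6_Ta KO and 0.23 in PBX3_Cl KO, neither called. Of 16 tested translation factors with TOP mRNAs, PAX6_Ta KO had 1 higher and 0 lower (median 0.38, 14 above 0, with 4 higher and 0 lower at an unadjusted p under 0.05), and PBX3_Cl KO had 0 called by edgeR (median 0.02, 8 above 0, with 2 higher and 0 lower at an unadjusted p under 0.05). With the replicate block these counts were 3 and 2 higher. The gene called was EIF3F on 11p, a subunit of initiation factor eIF3, at 130 and 122 CPM in PAX6_Ta KO against 46.4 and 77.9 in Control (1.02, SE 0.24, edgeR adjusted p = 0.0157). Of 39 ribosome biogenesis factors, PAX6_Ta KO had 0 higher and 1 lower (median -0.19, 32 below 0, with 0 higher and 7 lower at an unadjusted p under 0.05). PBX3_Cl KO had 0 called (edgeR, 1 higher and 2 lower unadjusted, median -0.04). With the replicate block, 4 were lower in PAX6_Ta KO, and 1 was higher and 1 lower in PBX3_Cl KO. The gene called without the block was GAR1 on 4q, a protein of the H/ACA snoRNPs, at 18.3 and 19.4 CPM in PAX6_Ta KO against 30.5 and 32.5 in Control (-0.74, edgeR adjusted p = 0.0240). Of 11 genes of RNA polymerase I, which transcribes ribosomal RNA, 1 was lower in PAX6_Ta KO, the catalytic subunit POLR1A on 2p (-0.90, edgeR adjusted p = 0.0441), and all 11 values were below 0. In PBX3_Cl KO 8 of the 11 were below 0 and 0 were called (edgeR, also 0 at an unadjusted p under 0.05).

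Of 12 regulators of ribosomal protein genes, 1 was lower in PAX6_Ta KO, TIA1 on 2p, a repressor of TOP mRNA translation under stress (-0.77, edgeR adjusted p = 0.0298). MYC, a driver of ribosome synthesis, stood at 395 and 410 CPM in PAX6_Ta KO, 352 and 403 in PBX3_Cl KO, and 367 and 496 in Control, with overlapping groups. The 6 chaperones and importers of ribosomal proteins had 0 calls in either knockout (edgeR, 1 at an unadjusted p under 0.05 in PAX6_Ta KO and 0 in PBX3_Cl KO). Of 76 mitochondrial ribosomal protein genes, the counterpart set in the mitochondrion, 2 were higher in PAX6_Ta KO and 1 in PBX3_Cl KO, and 0 were lower (edgeR, with 5 and 3 lower at an unadjusted p under 0.05). With the replicate block, 3 were higher and 3 lower in PAX6_Ta KO, and 4 higher and 1 lower in PBX3_Cl KO. MRPS6 on 21q stood at 19.8 and 21.7 CPM in PAX6_Ta KO against 9.08 and 12 in Control (0.98, edgeR adjusted p = 0.0197, arm median 0.04). MRPL17 on 11p was called in both, at 40.7 and 35.1 CPM in PAX6_Ta KO, 51.2 and 37 in PBX3_Cl KO, and 24.7 and 21.3 in Control (0.72 and 0.94). Of the genes called in these lists without the block, EIF3F, MRPL17, GAR1, POLR1A and TIA1 lie on 11p, 4q or 2p. Each changed in the direction of its arm's median. MRPS6, also called, lies on 21q, whose median was 0.04. The part of the arms in these calls was not tested.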

How the data were processed

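Total RNA of 6 libraries, 2 per group, was made into stranded libraries. After adaptor trimming (Cutadapt version 3.4), the authors mapped reads to GRCh37 with STAR and deposited raw read counts per gene. No source used here states the version of STAR. In the deposited table, 4 columns belong to none of the 6 labels and were left out, as were the authors' tables of fold changes and p-values.

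edgeR (version 4.0.16, in R version 4.3.3) was run on the counts after filterByExpr, with TMM scaling and a single quasi-likelihood fit of all libraries with Benjamini-Hochberg adjustment over 20746 genes. DESeq2 (version 1.42.0) was an alternative. SE denotes the standard error of a fitted log2 fold change. Log2 differences between replicates used CPM with 0.01 added. Positions and lengths came from GENCODE release 44 lifted to GRCh37, by symbol, and arm medians from arms with at least 20 protein-coding genes. Start windows came from RefSeq. The scripts were tested on simulated data.

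The members and lists were chosen with earlier results of these data known. Genes were named by a rule: every called member, the 5 highest and 5 lowest by level per length, the stalk, RPL5 and RPL11, the paralogues, members on arms with a median over 0.4 in size, and from other lists up to 3 called genes per comparison with MYC and FAU. Some genes that the rule names are not reported here. RPS2, RPS15A, RPS19, RPS23, RPS27, RPL31, RPL39, RPL13 and RPSA, and the other values outside it, were chosen after their values were seen.

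Replicate numbers come from the labels, which do not say what they mark. Over all tested genes, the replicate differences of PAX6_Ta KO correlated with those of Control at 0.389. Those of PBX3_Cl KO correlated with Control at 0.21, and those of the knockouts with each other at 0.379. The numbers were therefore used as a block in an alternative fit. The main fit and the permutation tests did not pair the libraries. Replicates differed by more than sampling noise (chi-square per degree of freedom 38.8 in PAX6_Ta KO, 121 in PBX3_Cl KO and 47.1 in Control). Alternatives were other scalings, filters, a replicate block, fits of 2 groups, arm medians taken out, and leaving out each library.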

Additional observations from a re-analysis of the deposited data

Results flagged for a closer look

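Direct tests between the knockouts separated 3 genes outside the members. MRPL28, a protein of the large mitochondrial subunit, stood at 101 and 81.1 CPM in PAX6_Ta KO against 169 and 151 in PBX3_Cl KO (log2 fold change -0.82, edgeR adjusted p = 0.0169). MRPL24, of the same subunit, stood at 24.8 and 21.7 CPM in PAX6_Ta KO against 37.6 and 35.1 in PBX3_Cl KO (-0.65, edgeR adjusted p = 0.0480). SNORD46, a small nucleolar RNA, stood at 5.1 and 4.39 CPM in PAX6_Ta KO against 10.5 and 8.69 in PBX3_Cl KO (-1.02, edgeR adjusted p = 0.0252). None of the 3 was called in either knockout against Control without the replicate block, and with it MRPL28 (0.56, edgeR adjusted p = 0.0271) and MRPL24 (0.58, 0.0314) were called higher in PBX3_Cl KO.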

How the results depend on the processing

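Against the main count of 1 member higher and 0 lower in PAX6_Ta KO against Control, the count of higher members was 0 with arm medians taken out, with library totals only and with the stricter filter, and 3 with no filter, with only the 2 groups compared (1 lower) and with the replicate block. Shares of all tested genes called higher in those fits were 6.57%, 7.04%, 8.05%, 5.46%, 9.28% and 9.78%, in that order. With only the 2 groups compared, 6.52% were lower. In PBX3_Cl KO against Control the count of higher members was 1 with no filter and 2 with the replicate block (4.6% and 9.26% of all tested genes). Between the knockouts it was 3 higher and 1 lower with no filter (4.43% and 4.5% of all tested genes). With the replicate block it was 1 higher and 3 lower (8.06% and 10.6%). Leaving out each library in turn gave 0 to 3 higher and 0 to 1 lower in PAX6_Ta KO, 0 to 3 higher and 0 to 6 lower in PBX3_Cl KO, and 0 to 12 higher and 0 to 1 lower between the knockouts. The median between the knockouts ran from -0.095 to 0.34 in those fits, set by the PBX3_Cl KO libraries. The largest counts, higher between the knockouts and lower in PBX3_Cl KO, both came from the fit without PBX3_Cl KO replicate 1. There the members' median was 0.34 between the knockouts, beside 0.02 over all tested genes. In PBX3_Cl KO against Control it was -0.30, beside -0.03. That fit kept 1 PBX3_Cl KO library, so its counts were not weighed against shares of all tested genes. The replicate difference of the members, with library totals only (added after seeing the data), was -0.065 in PAX6_Ta KO and 0.10 in Control. The median level per length was 127 CPM per kb over all annotated exons and 912 by coding length. Of 909 values of 19 named members under these alternatives, 876 kept their side of the threshold, 27 were called only there, 6 lost the call and 0 reversed. In the main fit RPLP2 in PAX6_Ta KO against Control was the only call among these values, so all 6 losses were of that call. The values that kept their side were mostly uncalled in both fits. With 2 libraries per group, fits that leave 1 library out assume that the remaining library varies like the other groups.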

Other observations

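Introns of ribosomal protein genes hold many of the small nucleolar RNAs that guide the modification of ribosomal RNA. Of 55 such entries within members, 39 had no count in any library and 11 were tested. None was called in either knockout against Control by edgeR. At an unadjusted p under 0.05 there were 0 in PAX6_Ta KO, beside 12.6% of all tested genes higher and 10.1% lower. In PBX3_Cl KO 1 was higher and 1 lower, beside 12.6% and 7.07%. The 55 entries summed to 15.6 and 18.9 CPM in PAX6_Ta KO, 21.6 and 21 in PBX3_Cl KO, and 16.9 and 25.5 in Control.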
